A study of Mus musculus with 12 samples.

Results

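The 78 genes described here encode the proteins of the mitochondrial ribosome as far as their symbols name them. They were taken from 55367 distinct gene symbols by the symbol alone, which had to begin with Mrpl (large subunit) or Mrps (small subunit) and go on with a number. There were 49 *Mrpl* and 29 *Mrps* genes, and all 78 passed the filter on low values and were tested. RNA was sequenced from 12 samples of myofibers of the extensor digitorum longus (EDL), a fast muscle of the hind limb. Young fibers came from 3–4-month-old male C57BL/6J mice (4 samples). Fibers of 26–28-month-old male mice were stained with Fluo-4, a dye that fluoresces with calcium, and were separated under a stereomicroscope into Fluo-4 normal fibers (4 samples) and Fluo-4 abnormal fibers with a brighter, aberrant stain (4 samples). No allele or drug was part of this comparison, and how many fibers or mice went into a sample is not given in the sources used here.

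The mitochondrial ribosome translates the few proteins that mitochondrial DNA encodes, all of them subunits of the respiratory chain and ATP synthase. Its rRNAs, mt-Rnr2 of the large subunit and mt-Rnr1 of the small subunit, are transcribed from mitochondrial DNA, whereas every ribosomal protein is encoded in the nucleus, made in the cytosol and imported. Many of the proteins have a counterpart in bacterial ribosomes, and the others belong to mitochondria.

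The symbols do not follow the assembled ribosome in every case. Mrps18a and Mrps30 sit in the large subunit, and Mrps36 is a component of the alpha-ketoglutarate dehydrogenase complex of the TCA cycle and not of the ribosome. By the subunit that holds the protein, the 78 genes were 51 of the large and 26 of the small subunit, with *Mrps36* in neither, and 46 encoded proteins with a bacterial counterpart and 31 without. Of the 78 genes, 9 had a near-identical copy elsewhere in the genome (at least 95% identity over at least 50% of the transcript), and exons of 43 overlapped another gene by at least 100 bp. The libraries were made without strand information, so reads from such overlaps could not be told apart.

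The values are in TPM, a unit of transcript abundance corrected for transcript length and for the total of the sample. They summed to 1000000 in each sample, and since read numbers cannot be had from them, counting error is not given. Between 16841 and 17936 genes were above 0 TPM per sample. Summed TPM of 8 myofiber genes was 127967 to 130785 in young, 113059 to 132786 in Fluo-4 normal and 132405 to 152539 in Fluo-4 abnormal samples. In the same order, the sum of 4 immune cell genes was 0.0140 to 0.449, 0.161 to 0.922 and 0.457 to 2.95 TPM, that of 4 fibroblast genes 18.02 to 33.0, 23.1 to 77.9 and 13.2 to 58.4 TPM and that of 4 Schwann cell genes 0.773 to 1.81, 1.41 to 6.32 and 3.57 to 7.45 TPM. The myofiber, immune and Schwann cell sums were each higher in every Fluo-4 abnormal sample than in every young sample, and their part in the results was not tested. The 4 adipocyte genes were at 0 in all 12 samples. *Myh4*, the myosin heavy chain of the fastest fibers, made up 96.9 to 98.6% of the TPM of 4 adult myosin heavy chain genes in young, 93.7 to 99.2% in Fluo-4 normal and 98.9 to 99.7% in Fluo-4 abnormal samples, and its part in the results was not tested apart from the fits with this share as a covariate. TMM-type scaling factors were 0.908 to 1.04 in young, 0.809 to 0.998 in Fluo-4 normal and 1.06 to 1.17 in Fluo-4 abnormal samples. All Fluo-4 abnormal factors were above all others, so scale and group go together, and the cause was not tested. Fluo-4 normal replicate 1 stood apart in scale, with the lowest factor of the 12 samples (0.809). The counts that move most without that sample are given with and without it.

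The genes differed widely in level, from a mean over the 12 samples of 5.26 TPM for *Mrpl19* to 1098 TPM for *Mrpl42*, with a median of 65.9 TPM. TPM is a scale per transcript length, so levels of different genes can be set side by side. The most abundant *Mrpl* genes were *Mrpl42*, *Mrpl33* (576 TPM) and *Mrpl30* (352 TPM), and the most abundant *Mrps* genes were *Mrps21* (731 TPM), *Mrps14* (243 TPM) and *Mrps28* (205 TPM). At the low end were *Mrpl19*, *Mrpl39* (11.6 TPM) and *Mrpl47* (11.7 TPM) of the first family and *Mrps2* (9.23 TPM), *Mrps30* (16.9 TPM) and *Mrps22* (21.6 TPM) of the second. Most of the proteins are present in equal numbers in an assembled ribosome, with Mrpl12 as an exception, whereas the transcript levels spanned more than 2 orders of magnitude. The families were alike in the middle of the range, with medians of 65.1 TPM over *Mrpl* and 66.7 TPM over *Mrps* genes.

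**Figure D1:**
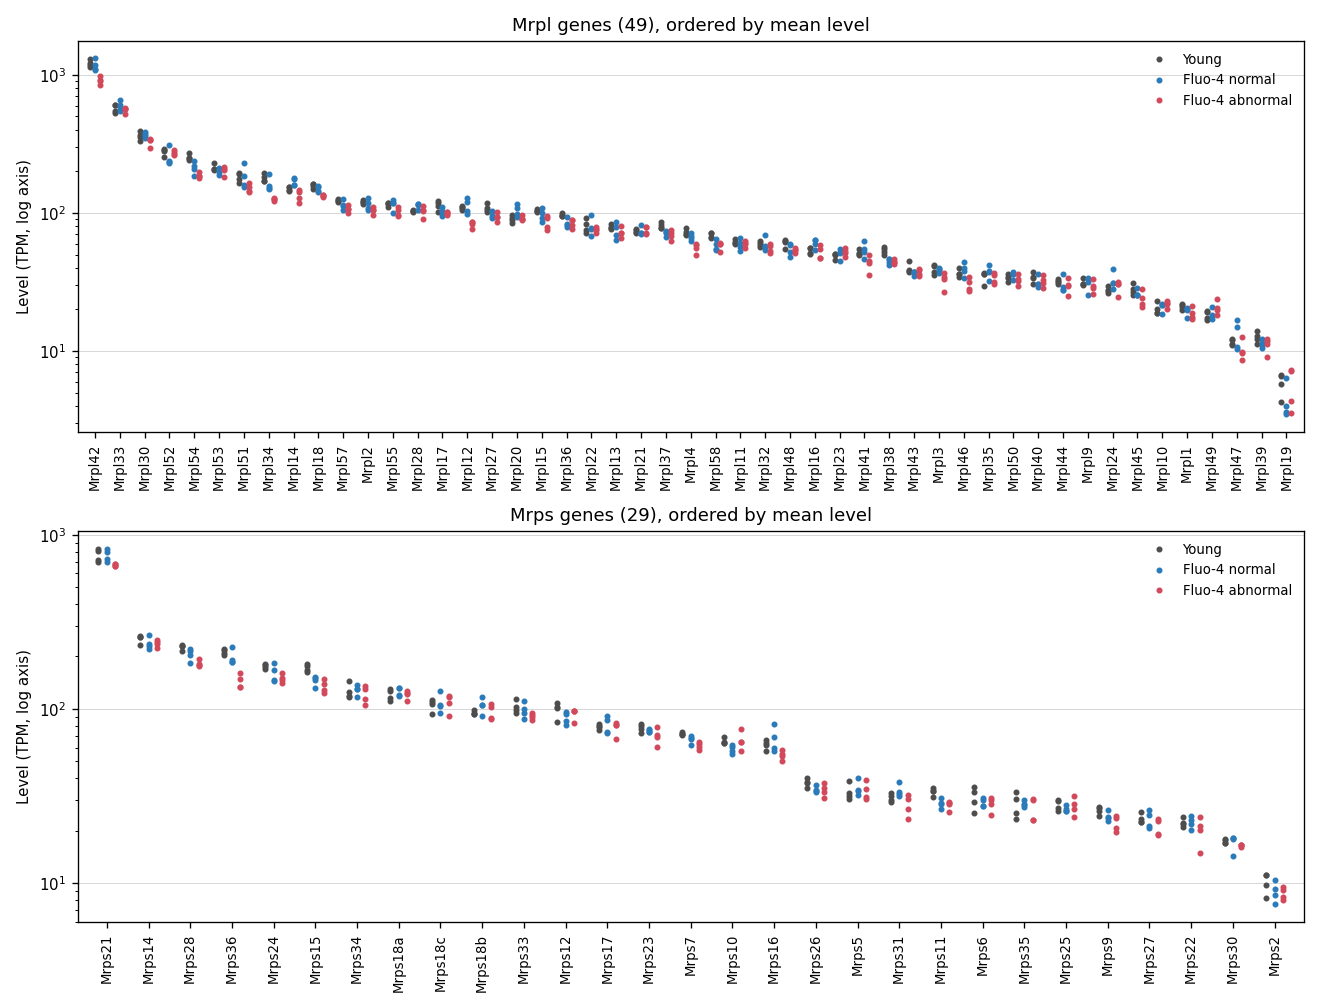
Level of each of the 49 Mrpl genes (top) and 29 Mrps genes (bottom) in every sample, in TPM on a log axis, with points coloured by group and genes ordered by mean level. Levels ran from 5.26 TPM for Mrpl19 to 1098 TPM for Mrpl42, and the 3 groups lay close together for most genes.

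Some levels carry a limit from near-identical copies. *Mrpl23* was listed at a mean of 50.5 TPM, whereas its processed copy *Mrpl23-ps1* was listed at 350.1 TPM. The sum of the pair was 398 ± 16.4 TPM (SD, n = 4) in young, 396 ± 24.8 TPM in Fluo-4 normal and 407 ± 24.4 TPM in Fluo-4 abnormal samples, so the level of *Mrpl23* itself is uncertain. The copies of the other 8 genes were listed at no more than 7.46 TPM in any group mean, apart from a host gene that a copy lies in.

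Promoters are shown for called genes because the nuclear genes of the respiratory chain are known for sites of the factors NRF1, GABPA (NRF-2, an ETS factor) and YY1 near their starts. The letters GCATGCGC (NRF1 core), CCGGAAG (ETS) and AAGATGGC (YY1) were searched on both strands from 250 bases before to 50 bases after the start of the canonical transcript. They were found in 7, 24 and 6 of the 78 promoters (8.97%, 30.8% and 7.69%), compared with 3.69%, 10.3% and 2.47% of 21738 protein-coding genes and 4.54%, 14.1% and 3.20% of those tested. The 4 sequences below are the 150 bases before the start of the transcript, on the gene's strand and in build GRCm39, with a match in capitals.
Mrpl12, chr11:120375289-120375438, plus strand: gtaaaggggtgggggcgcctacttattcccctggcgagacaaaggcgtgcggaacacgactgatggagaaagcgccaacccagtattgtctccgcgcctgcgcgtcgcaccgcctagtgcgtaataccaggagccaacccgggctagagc
Mrpl34, chr8:71917405-71917554, plus strand: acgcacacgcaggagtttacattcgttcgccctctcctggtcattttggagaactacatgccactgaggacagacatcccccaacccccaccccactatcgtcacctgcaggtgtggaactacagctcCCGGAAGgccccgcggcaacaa
Mrpl38, chr11:116029701-116029850, minus strand: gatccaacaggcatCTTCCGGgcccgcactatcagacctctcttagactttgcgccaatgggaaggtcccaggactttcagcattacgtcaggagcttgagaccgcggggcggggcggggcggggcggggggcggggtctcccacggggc
Mrps28, chr3:8988979-8989128, minus strand: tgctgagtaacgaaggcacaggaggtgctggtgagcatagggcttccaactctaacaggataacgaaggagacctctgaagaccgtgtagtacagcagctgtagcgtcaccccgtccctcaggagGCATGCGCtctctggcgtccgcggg
*Mrpl34* held the ETS letters 22 bases before its start, *Mrpl38* held them on the other strand from 136 bases before its start, and *Mrps28* held the NRF1 core from 25 bases before its start. *Mrpl12*, which is described next, held none of the 3 within the window. Of the 13 genes called in either comparison below, 4 held a match, compared with 32 of all 78 (41.0%). The median log2 change between Fluo-4 abnormal and normal fibers was -0.07 for the 32 genes with a match and -0.11 for the 46 without. A match is a run of letters and does not show that the factor binds.

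Fluo-4 abnormal fibers were first compared with Fluo-4 normal fibers of the same age, to describe the genes in the fibers with the aberrant stain. Of the 78 genes, 7 were lower (adjusted p under 0.05, limma with Benjamini-Hochberg adjustment over 14435 genes), which is 8.97% of them, and none was higher. The background of the same comparison was 2.00% of genes called lower and 7.36% called higher, and 4.60% called lower when only the 6352 genes with at least 5 TPM were tested. The 7 genes were *Mrpl12*, *Mrpl34*, *Mrpl42*, *Mrpl46*, *Mrpl14* and *Mrpl4* of the large subunit, and *Mrps36*. Thus 6 of 49 *Mrpl* genes and 1 of 29 *Mrps* genes were called, and 0 of the 26 genes whose protein is held in the small subunit, of which 4 had an unadjusted p under 0.05, all lower. Without adjustment, 20 of the 78 genes passed, all 20 lower, compared with 3695 of all 14435 genes in either direction. In bulk samples of fibers, fewer fibers with a transcript and less of it in each fiber cannot be told apart.

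*Mrpl12* encodes a stalk protein that lies where translation factors bind and that also binds the mitochondrial RNA polymerase (ENSMUSG00000039640.9, chr11:120375430-120381396, build GRCm39). It stood at 109, 105, 109.8 and 112 TPM in the young samples, 128, 121, 98.1 and 103 TPM in the Fluo-4 normal samples and 86.3, 82.6, 77.1 and 85.8 TPM in the Fluo-4 abnormal samples. All 4 Fluo-4 abnormal samples were below all 8 others. In limma, the geometric mean of TPM + 1 fell by 25.7% (log2 change -0.43, SE 0.08, adjusted p = 0.0069). The other percent decreases of single genes below are of this kind too. The gene had neither a near-identical copy nor an overlapping neighbour. *Mrpl10*, whose protein anchors the stalk, differed by 0.06 (95% interval -0.13 to 0.25) on the log2 scale, and *Mrpl11*, at the base of the stalk, by 0.02 (95% interval -0.14 to 0.18). Neither passed the test, and a difference between them and *Mrpl12* was not tested.

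*Mrpl34* is the counterpart of a small bacterial large-subunit protein (ENSMUSG00000034880.9, chr8:71917555-71918396). It stood at 170.0, 195, 172 and 182 TPM in the young samples, 190.0, 149.8, 150.5 and 157 TPM in the Fluo-4 normal samples and 125, 128, 123 and 126 TPM in the Fluo-4 abnormal samples. The 4 Fluo-4 abnormal samples were within 5 TPM of each other and below all others. The decrease was 22.0% (log2 change -0.36, SE 0.08, adjusted p = 0.014), and 537 bp of its exons overlapped a lncRNA on the other strand. *Mrpl14*, another protein with a bacterial counterpart, stood at 145, 155, 148 and 154 TPM in the young samples, 179, 160.0, 159 and 176 TPM in the Fluo-4 normal samples and 142, 128, 117 and 146 TPM in the Fluo-4 abnormal samples. The Fluo-4 abnormal samples were below all Fluo-4 normal samples but overlapped the young ones. It fell by 20.9% (log2 change -0.34, SE 0.07, adjusted p = 0.015), and 106 bp of its exons overlapped *Tmem63b* on the other strand (34.4 TPM).

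*Mrpl4*, whose bacterial counterpart lies near the exit tunnel, stood at 70.7, 68.9, 73.1 and 77.8 TPM in the young samples, 62.6, 71.1, 65.4 and 68.5 TPM in the Fluo-4 normal samples and 58.6, 59.5, 49.2 and 55.5 TPM in the Fluo-4 abnormal samples. Each Fluo-4 abnormal sample was below the other 8. It fell by 16.6% (log2 change -0.26, SE 0.07, adjusted p = 0.042), close to the threshold, and the call was lost in 13 of 26 alternative fits.

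*Mrpl42* and *Mrpl46* belong to the proteins without a bacterial counterpart. *Mrpl42*, the most abundant of the 78, stood at 1210.0, 1134, 1180.2 and 1307 TPM in the young samples, 1317, 1099.8, 1182 and 1089.9 TPM in the Fluo-4 normal samples and 983, 845, 910.1 and 922 TPM in the Fluo-4 abnormal samples. The highest Fluo-4 abnormal value was 983 TPM and the lowest of the other 8 was 1089.9 TPM. The decrease was 21.8% (log2 change -0.35, SE 0.08, adjusted p = 0.014), and its near-identical copy *Gm6419* was listed at a mean of 3.63 TPM. *Mrpl46* stood at 39.6, 36.4, 36.2 and 34.5 TPM in the young samples, 44.2, 39.6, 37.7 and 33.8 TPM in the Fluo-4 normal samples and 34.1, 27.1, 28.4 and 31.5 TPM in the Fluo-4 abnormal samples. Here 1 Fluo-4 abnormal sample was above the lowest Fluo-4 normal sample, so these groups overlapped. It fell by 21.4% (log2 change -0.35, SE 0.10, adjusted p = 0.037), and the call was lost in 13 of 26 alternative fits. *Mrpl46* and *Mrps11* are neighbours on chromosome 7 on opposite strands with 173 bp of shared exon sequence, and *Mrps11* differed by -0.03 (95% interval -0.19 to 0.13).

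*Mrps36* had the largest decrease of the 78 genes. It stood at 218, 209, 205 and 222 TPM in the young samples, 227, 187, 191 and 187 TPM in the Fluo-4 normal samples and 161, 148, 133 and 133 TPM in the Fluo-4 abnormal samples. The 4 Fluo-4 abnormal samples were below the other 8, and Fluo-4 normal replicate 1 was above the other Fluo-4 normal samples. It fell by 27.2% (log2 change -0.46, SE 0.08, adjusted p = 0.0044). Its copy *Mrps36-ps1* was listed at 5.81 TPM over the 12 samples, and *Mrps36-ps2*, another pseudogene of that name, at 14.8, 13.2 and 5.68 TPM in young, Fluo-4 normal and Fluo-4 abnormal samples. Since the protein is a TCA cycle component, 6 of the 7 called genes encode ribosomal proteins.

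**Figure D2:**
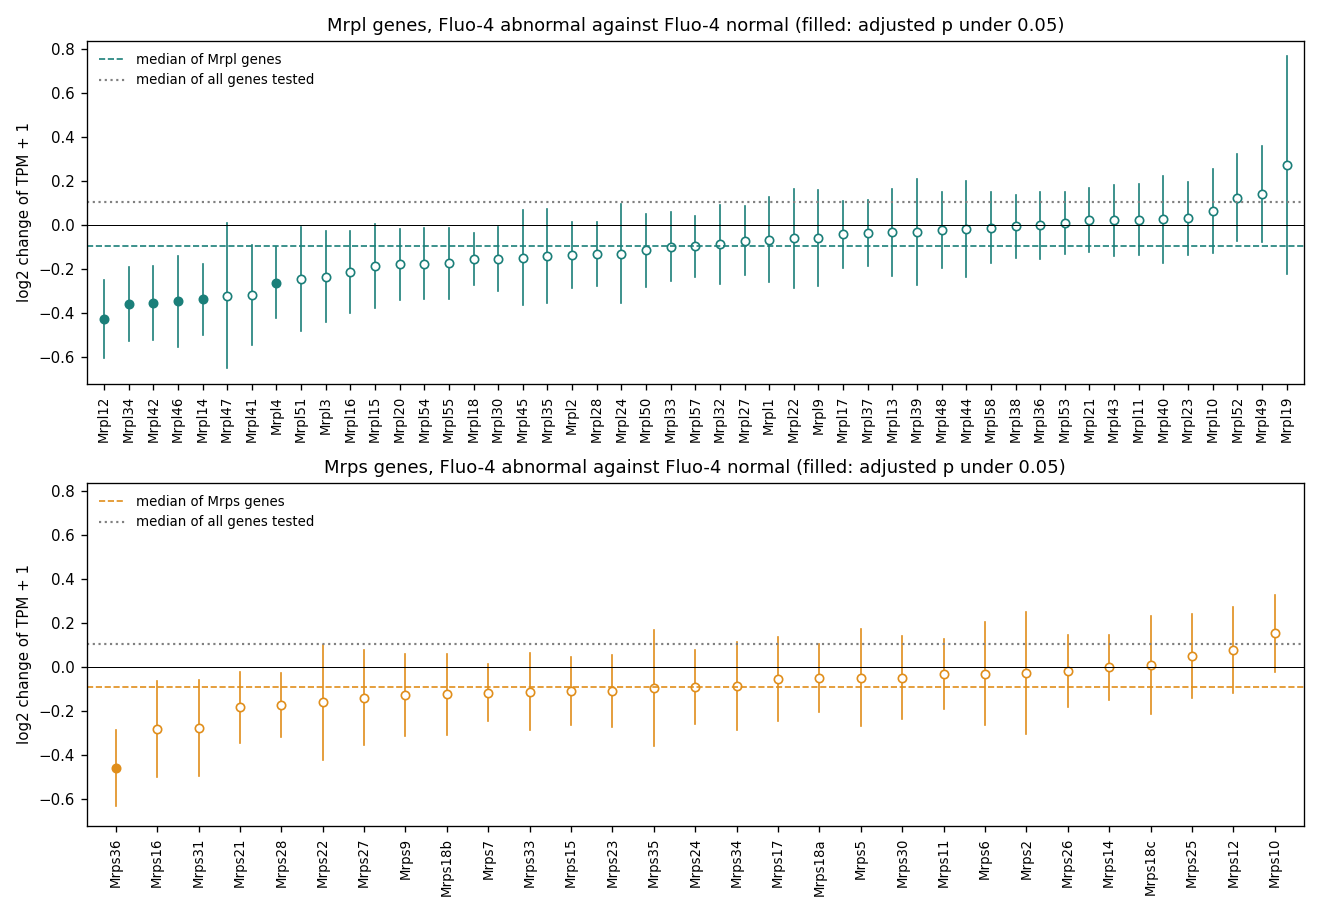
Log2 change of TPM + 1 between Fluo-4 abnormal and Fluo-4 normal fibers for each Mrpl gene (top) and Mrps gene (bottom), ordered by size, with 95% intervals from limma and filled points for the 7 genes with an adjusted p under 0.05. Most points lie below 0 and below the dotted line, the median of all 14435 genes (0.10), and the medians of the families (-0.10 and -0.09, dashed) are close to each other.

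The other 71 genes did not pass the test, and most of them were slightly lower. In all, 64 of the 78 log2 changes were below 0, which were 39 of 49 *Mrpl* and 25 of 29 *Mrps* genes. The median change was -0.10 over *Mrpl* and -0.09 over *Mrps* genes, whereas it was 0.10 over all 14435 genes tested and 0.20 over the 6352 genes with at least 5 TPM. The typical decrease was thus close to the size of 1 SE of a single gene (median 0.08). In 9 of the 78 genes (11.5%), all Fluo-4 abnormal samples were below all Fluo-4 normal samples, compared with 2.55% of all genes, and in none were they all above, compared with 11.5% of all genes. These 9 were the called genes other than *Mrpl46*, together with *Mrpl18*, *Mrpl30* and *Mrps21*, which were named after their values were seen and did not pass the test.

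The highest log2 changes belonged to *Mrpl19*, *Mrps10* and *Mrpl49*. *Mrpl19* stood at 6.42, 4.02, 3.61 and 3.48 TPM in Fluo-4 normal and 7.13, 7.24, 3.56 and 4.32 TPM in Fluo-4 abnormal samples, with a difference of 0.27 (95% interval -0.23 to 0.77), and the samples of each group spread over about the same range. *Mrps10* differed by 0.15 (95% interval -0.02 to 0.33) and *Mrpl49* by 0.14 (95% interval -0.08 to 0.36). None of these passed the test.

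Other large-subunit genes chosen by the role of the protein did not pass the test. *Mrpl45*, which holds the ribosome to the inner membrane at the tunnel exit, differed by -0.15 (95% interval -0.36 to 0.07). *Mrpl3*, which in its bacterial form reaches toward the peptidyl transferase centre, differed by -0.24 (95% interval -0.44 to -0.03), and its interval excluded 0 although its adjusted p was 0.14. *Mrpl44*, with a fold of the RNase III family, differed by -0.02 (95% interval -0.24 to 0.20), and *Mrpl58*, a peptidyl-tRNA hydrolase that was recruited into the ribosome, by -0.01 (95% interval -0.17 to 0.15).

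Within the small subunit, *Mrps12* of the decoding centre differed by 0.08 (95% interval -0.12 to 0.27) and *Mrps5* by -0.05 (95% interval -0.27 to 0.17). *Mrps7* and *Mrps16*, which bind the rRNA early in assembly in bacteria, differed by -0.12 (95% interval -0.25 to 0.01) and -0.28 (95% interval -0.50 to -0.06). *Mrps22* and *Mrps34*, which have no bacterial counterpart, differed by -0.16 (95% interval -0.42 to 0.10) and -0.09 (95% interval -0.29 to 0.11). None passed the test, the lowest adjusted p being 0.099 for *Mrps16*.

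The 3 genes named after bacterial protein S18 can be set side by side, since Mrps18b and Mrps18c sit in the small subunit and Mrps18a in the large. Their differences were -0.05 (95% interval -0.21 to 0.10) for *Mrps18a*, -0.12 (95% interval -0.31 to 0.06) for *Mrps18b* and 0.01 (95% interval -0.21 to 0.23) for *Mrps18c*. *Mrps30*, the other *Mrps* gene of the large subunit, differed by -0.05 (95% interval -0.24 to 0.14). None of the 4 passed the test, and all 4 had overlapping groups.

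The 37 genes that no rule named (25 *Mrpl*, 12 *Mrps*, at mean levels from 19.7 to 268 TPM) had differences from -0.32 to 0.12 between Fluo-4 abnormal and normal fibers, and 30 of them were below 0. Closest to the threshold was *Mrpl41*, with an adjusted p of 0.074. Against young fibers 35 of the 37 were below 0, with a median of -0.15 and a lowest adjusted p of 0.055 for *Mrpl15*. Both were named after their values were seen.

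The number of calls moved with the scaling. With TMM-type factors, which set the median of all genes from 0.10 to 0.00, 24 of the 78 genes were called lower (17 *Mrpl*, 7 *Mrps*; background 3.76% lower), the medians were -0.32 over *Mrpl* and -0.32 over *Mrps* genes, and the share of lower calls among all genes went from 21.3% to 64.0%. With the *Myh4* share as a covariate 5 were called (background 0.748% lower), and 0 when the replicate block was added to it, a fit that called 22 of all 14435 genes (background 0.0554% lower). With only the aged groups in the fit, *Mrpl12* and *Mrps36* remained called and *Mrpl14*, *Mrpl34*, *Mrpl42*, *Mrpl4* and *Mrpl46* did not (background 1.00% lower). Without Fluo-4 abnormal replicate 2, 4 of the 7 remained called (*Mrpl12*, *Mrpl34*, *Mrpl42*, *Mrps36*), with a background of 1.34% lower. Without Fluo-4 normal replicate 1 there were 6 lower calls and 1 higher (*Mrpl52*), with a background of 1.93% lower and 656 of all 14435 genes higher. The medians without that sample were -0.05 over *Mrpl*, -0.06 over *Mrps* and 0.07 over all genes.

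Fluo-4 abnormal fibers were then compared with young fibers, which share the Fluo-4 abnormal samples with the comparison above and so are not independent of it. Here 11 of the 78 genes (14.1%) were lower and none was higher, with a background of 2.40% lower and 6.09% higher. They were 7 of 49 *Mrpl* genes (*Mrpl12*, *Mrpl34*, *Mrpl42*, *Mrpl4*, *Mrpl54*, *Mrpl38*, *Mrpl18*) and 4 of 29 *Mrps* genes (*Mrps15*, *Mrps28*, *Mrps7*, *Mrps36*). When only the 6352 genes with at least 5 TPM were tested, the background was 5.97% lower, and 14 of the 78 genes were called lower. In 27 of the 78 genes (34.6%), all Fluo-4 abnormal samples were below all young samples, compared with 3.95% of all genes, and in none were they all above, compared with 12.2%. Such shares over all genes, here and in the other comparisons, include genes at low levels (median 2.75 TPM, against 65.9 TPM for the 78). In 67 of 78 the log2 change was below 0. Without Fluo-4 normal replicate 1, which enters this comparison only through the shared variance, 16 genes were called lower, the 11 among them (background 2.98%). The median was -0.18 over *Mrpl* and -0.15 over *Mrps* genes, and 0.07 over all genes tested.

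The 5 genes called in both comparisons were *Mrpl12* (log2 change -0.39, SE 0.08, adjusted p = 0.011), *Mrpl34* (log2 change -0.51, SE 0.08, adjusted p = 0.0017), *Mrpl42* (log2 change -0.40, SE 0.08, adjusted p = 0.007), *Mrpl4* (log2 change -0.38, SE 0.07, adjusted p = 0.0077) and *Mrps36* (log2 change -0.57, SE 0.08, adjusted p = 9.8e-04). All 5 kept the call in the comparison with young fibers in each of 22 alternative fits.

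Among the 6 genes called only here, *Mrpl54* has no bacterial counterpart and stood at 241, 272, 248 and 249 TPM in the young samples, 208, 237, 219 and 185 TPM in the Fluo-4 normal samples and 184, 186, 197 and 181 TPM in the Fluo-4 abnormal samples. Fluo-4 abnormal samples were below all young samples, and the Fluo-4 normal samples lay between, with a range that overlapped the abnormal one. It fell by 25.8% (log2 change -0.43, SE 0.07, adjusted p = 0.0038), and 3819 bp of its exons overlapped *Matk* on the other strand, which was listed at 0.121 TPM. *Mrpl38*, also of the proteins without a bacterial counterpart, stood at 49.6, 56.5, 54.8 and 52.1 TPM in the young samples, 44.2, 46.4, 46.3 and 41.9 TPM in the Fluo-4 normal samples and 44.4, 46.2, 44.3 and 42.9 TPM in the Fluo-4 abnormal samples. Both aged groups overlapped each other and were below all young samples, and the decrease against young was 16.2% (log2 change -0.25, SE 0.07, adjusted p = 0.031), a call that was lost in 6 of 22 alternative fits. *Mrpl18*, which encodes the counterpart of a bacterial protein that binds 5S rRNA, stood at 157, 150.3, 163 and 162 TPM in the young samples, 156, 154, 142 and 144 TPM in the Fluo-4 normal samples and 134, 135, 133 and 132 TPM in the Fluo-4 abnormal samples. Its Fluo-4 abnormal samples were below all others, with a decrease of 15.5% (log2 change -0.24, SE 0.05, adjusted p = 0.016), and 442 bp of its exons overlapped *Tcp1* on the other strand (109.8 TPM).

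On the small subunit side, *Mrps15* stood at 176, 163, 181 and 167 TPM in the young samples, 147, 132, 152 and 151 TPM in the Fluo-4 normal samples and 124, 128, 149 and 139 TPM in the Fluo-4 abnormal samples. The lowest young sample was above the highest of both aged groups, and the decrease was 21.4% (log2 change -0.35, SE 0.07, adjusted p = 0.011). *Mrps28* stood at 229.9, 233, 214 and 230.2 TPM in the young samples, 215, 203, 221 and 183 TPM in the Fluo-4 normal samples and 176, 178, 193 and 180.1 TPM in the Fluo-4 abnormal samples. Its Fluo-4 abnormal samples were below all young samples and overlapped the Fluo-4 normal ones, with a decrease of 19.9% (log2 change -0.32, SE 0.07, adjusted p = 0.011). *Mrps7* stood at 73.5, 71.7, 72.0 and 70.5 TPM in the young samples, 62.1, 69.9, 67.1 and 68.0 TPM in the Fluo-4 normal samples and 64.6, 58.1, 62.5 and 60.7 TPM in the Fluo-4 abnormal samples. All Fluo-4 abnormal samples were below all young samples and overlapped the Fluo-4 normal ones. The decrease was 14.4% (log2 change -0.22, SE 0.06, adjusted p = 0.036), and the call was lost in 10 of 22 alternative fits. *Mrps15* shares 230 bp with *Oscp1* on the same strand (1.56 TPM), *Mrps28* shares 182 bp with a lncRNA and *Mrps7* shares 1228 bp with *Mif4gd* on the other strand (25.5 TPM).

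**Figure D3:**
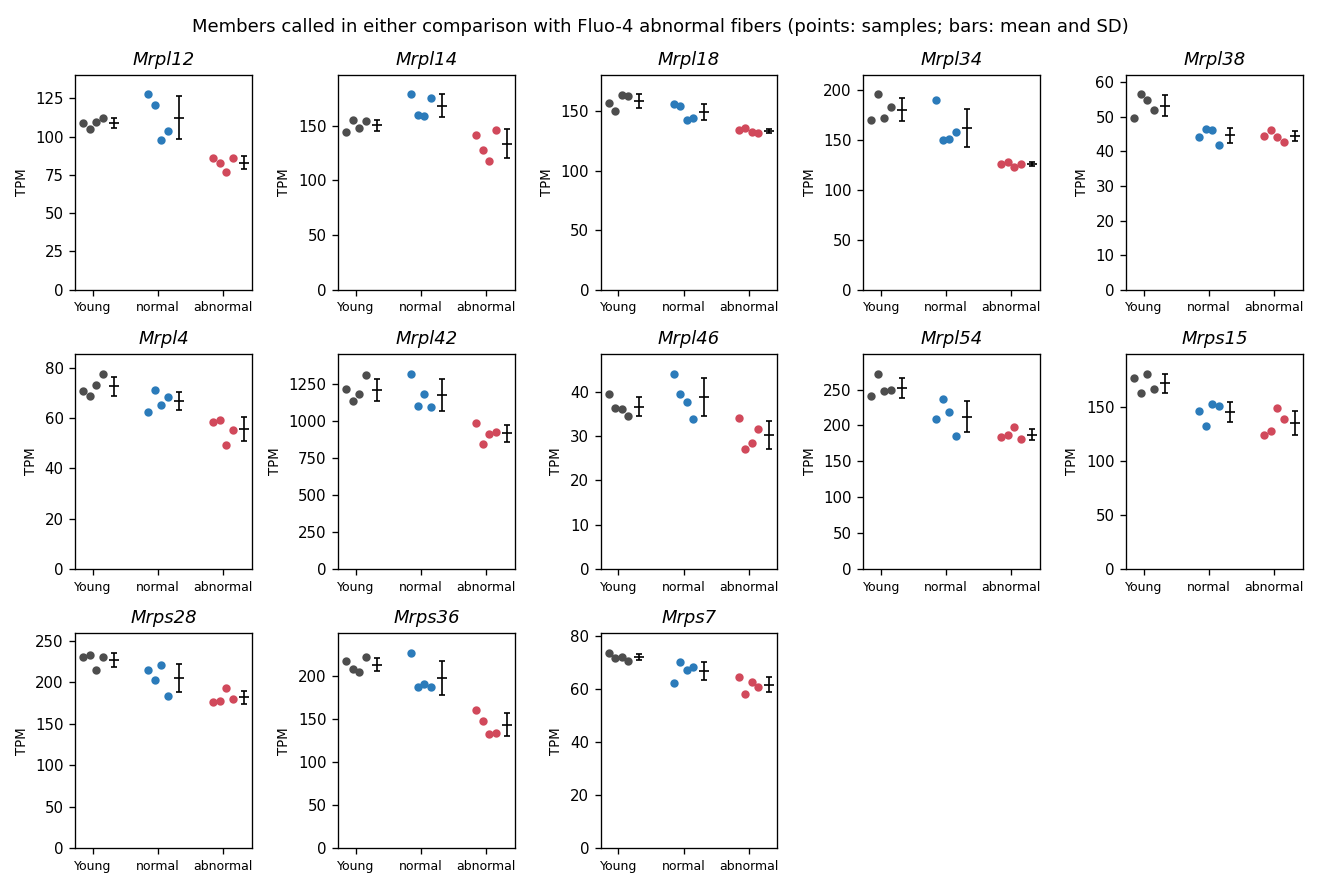
TPM of the 13 genes called in either comparison with Fluo-4 abnormal fibers, with each sample as a point and the mean and SD (n = 4) as a bar, on axes that start at 0. In 12 of the panels all Fluo-4 abnormal points lie below all young points, and in 7 they lie below all Fluo-4 normal points. The genes were picked by their calls in these same samples, so such separation follows in part from the choice. Over all genes tested the shares were 3.95% and 2.55%.

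The comparison of Fluo-4 normal with young fibers asks how the genes stood in aged fibers with an ordinary stain. By limma's adjusted p, 0 of the 78 genes were called, against a background of 1.14% in either direction. At an unadjusted p under 0.05, 8 were lower and 1 was higher, and 1866 of all 14435 genes passed in either direction. Without Fluo-4 normal replicate 1 it was 17 lower and 1 higher, with 2018 of all genes, and the median over *Mrpl* genes was -0.10. That comparison and the one of Fluo-4 abnormal with young fibers share the young samples, so they are not independent. Of the 9 that passed with all samples, *Mrpl38*, *Mrpl54*, *Mrps15* and *Mrps28* were among the genes called in Fluo-4 abnormal against young fibers. Their differences between Fluo-4 normal and young fibers were -0.25 (95% interval -0.39 to -0.11), -0.25 (95% interval -0.41 to -0.09), -0.24 (95% interval -0.39 to -0.08) and -0.15 (95% interval -0.29 to -0.00). *Mrpl12* differed by 0.04 (95% interval -0.14 to 0.22) and *Mrpl42* by -0.05 (95% interval -0.21 to 0.12), and a difference between these genes and the others was not tested. Every Fluo-4 normal sample was below every young sample in 9 genes (11.5%), compared with 4.95% of all genes, and above in 2 genes (2.56%), compared with 3.03% of all genes. The medians were -0.06 over *Mrpl* and -0.06 over *Mrps* genes, and -0.02 over all genes tested.

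The highest changes between Fluo-4 normal and young fibers belonged to *Mrpl24* (0.21 (95% interval -0.01 to 0.44)), *Mrpl20* (0.19 (95% interval 0.03 to 0.35)) and *Mrpl16* (0.18 (95% interval -0.01 to 0.36)), and the lowest to *Mrpl19* (-0.36 (95% interval -0.86 to 0.13)), *Mrpl54* and *Mrpl38*. With sample quality weights, 1 gene, *Mrpl58*, passed. Over the 3 group means, 40 of the 78 genes were highest in young and lowest in Fluo-4 abnormal fibers, and 19 were highest in Fluo-4 normal and lowest in Fluo-4 abnormal fibers. In the remaining 19, the lowest mean was that of another group. The same count over all genes was not made, so these orders are a description only.

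**Figure D4:**
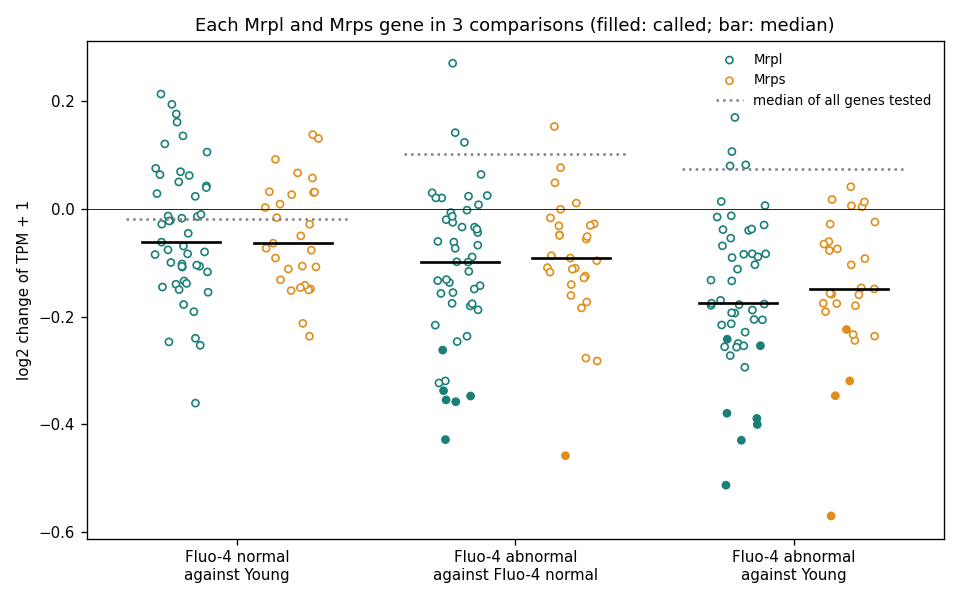
Log2 change of TPM + 1 of every Mrpl and Mrps gene in the 3 comparisons, with a bar at the median of each family, filled points for called genes and a dotted line at the median of all genes tested. The families lie at about the same height in each comparison, with medians of -0.06 and -0.06, -0.10 and -0.09, and -0.18 and -0.15 from left to right.

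The balance of the subunits was read from summed TPM. The 49 *Mrpl* genes summed to 5899, 5809.6, 5808 and 6108 TPM in the young samples, 6289, 5641, 5638 and 5446 TPM in the Fluo-4 normal samples and 5272, 5018, 5052 and 5160.0 TPM in the Fluo-4 abnormal samples. For the 29 *Mrps* genes, the sums were 3167, 3089, 3061 and 3185, 3264, 2883, 3029 and 2918, and 2839, 2740.3, 2690.1 and 2820.0 TPM. Both sums were below all other samples in the 4 Fluo-4 abnormal samples, with a mean share of all TPM of 0.790 ± 0.0179% (SD, n = 4), compared with 0.878 ± 0.0532% in Fluo-4 normal and 0.903 ± 0.0195% in young samples. The abundant genes weigh most in such sums. *Mrpl42* alone made up 915 of the 7898 ± 179 TPM in Fluo-4 abnormal fibers, and without it the sums of the other 77 genes were 6832 to 7128 TPM in Fluo-4 abnormal, 7274 to 8236 TPM in Fluo-4 normal and 7689 to 7986 TPM in young samples.

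The ratio of the *Mrpl* to the *Mrps* sum was 1.86, 1.88, 1.90 and 1.92 in young, 1.93, 1.96, 1.86 and 1.87 in Fluo-4 normal and 1.86, 1.83, 1.88 and 1.83 in Fluo-4 abnormal samples. The means were 1.89 ± 0.0234, 1.90 ± 0.0467 and 1.85 ± 0.0230 (SD, n = 4), and the groups overlapped. Assigned by the subunit that holds the protein, the ratios were 2.18 ± 0.0280, 2.20 ± 0.0539 and 2.11 ± 0.0312. With geometric means, in which every gene counts the same, they were 1.06 ± 0.0164, 1.06 ± 0.0283 and 1.05 ± 0.0226. No test was made of these scores over the members.

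**Figure D5:**
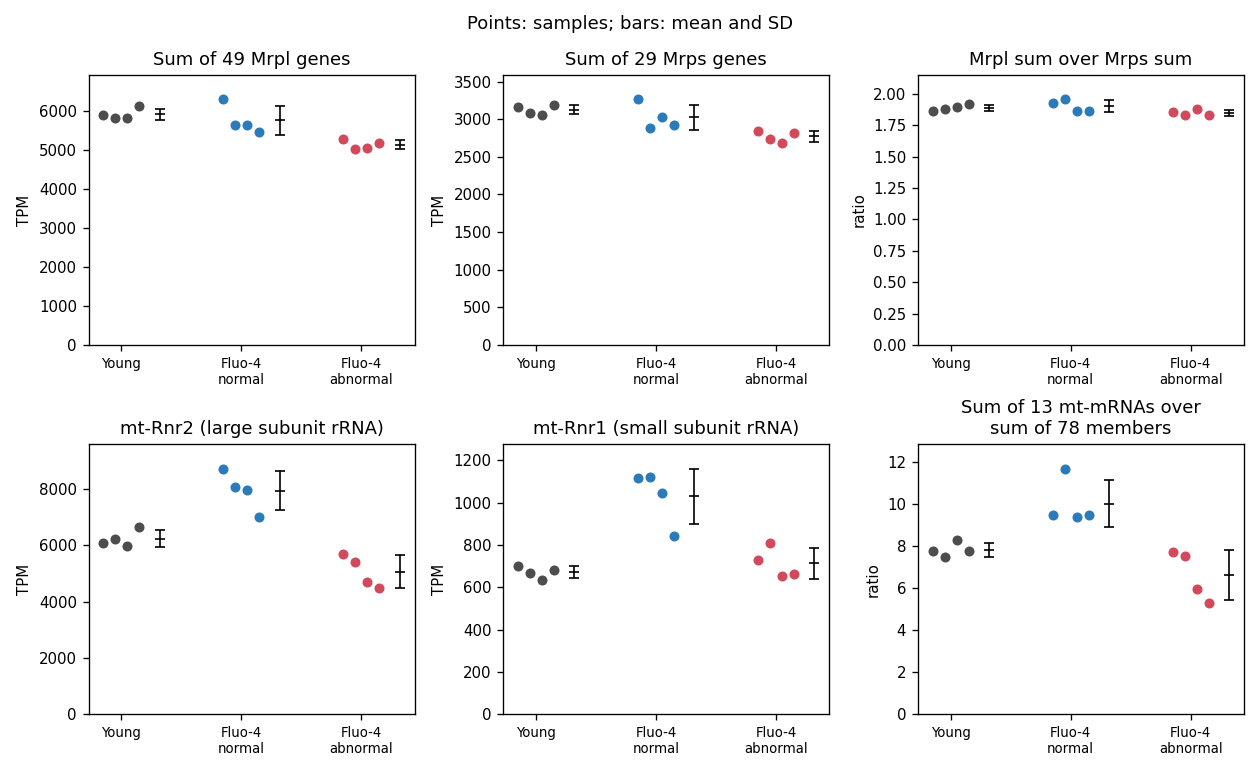
Summed TPM of the Mrpl and Mrps genes and their ratio (top), TPM of the rRNAs mt-Rnr2 and mt-Rnr1, and the ratio of the 13 mitochondrially-encoded mRNAs to the 78 genes (bottom), with samples as points and mean and SD (n = 4) as bars. The Mrpl to Mrps ratio stayed between 1.83 and 1.96 in the 12 samples, whereas the ratio of the mt-mRNAs to the 78 genes ran from 5.29 to 11.7.

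The rRNAs of the same ribosome did differ between the groups. *mt-Rnr2* stood at 6095, 6228, 5989 and 6656 TPM in the young samples, 8728, 8059, 7982 and 7014 TPM in the Fluo-4 normal samples and 5694, 5399, 4689.7 and 4468 TPM in the Fluo-4 abnormal samples. The Fluo-4 abnormal samples were below all others and the Fluo-4 normal samples above all others, and between the aged groups the level fell by 36.4% (log2 change -0.65, SE 0.10, adjusted p = 0.0024). *mt-Rnr1* stood at 703, 668, 633 and 681 TPM in the young samples, 1115, 1120.4, 1044 and 841 TPM in the Fluo-4 normal samples and 727, 809, 655 and 662 TPM in the Fluo-4 abnormal samples. It fell by 30.5% between Fluo-4 normal and abnormal fibers (log2 change -0.53, SE 0.10, adjusted p = 0.0058) and was higher in Fluo-4 normal than in young fibers (log2 change 0.61, SE 0.10, adjusted p = 0.0087). Against young fibers, the Fluo-4 abnormal fibers differed by 0.08 (95% interval -0.12 to 0.29) for *mt-Rnr1* and -0.31 (95% interval -0.52 to -0.09) for *mt-Rnr2*, which did not pass the test. The kit primes on poly(A), so rRNA levels may depend on how much of the rRNA carries a tail. That was not tested.

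Set against the proteins, *mt-Rnr2* was 89.6 ± 3.90 times the geometric mean of the *Mrpl* genes in young, 118 ± 6.03 times in Fluo-4 normal and 80.8 ± 6.88 times in Fluo-4 abnormal samples (SD, n = 4), and *mt-Rnr1* was 10.2 ± 0.547, 16.2 ± 1.89 and 12.0 ± 1.16 times that of the *Mrps* genes. All 13 mitochondrially-encoded mRNAs, the products of which this ribosome makes, were called lower in Fluo-4 abnormal fibers than in their Fluo-4 normal counterparts (median log2 change -0.72). Examples were *mt-Nd1* of complex I (log2 change -0.84, SE 0.13, adjusted p = 0.0026), *mt-Nd5* of the same complex (log2 change -0.70, SE 0.11, adjusted p = 0.0029), and *mt-Co2* and *mt-Co3* of cytochrome c oxidase (log2 change -0.80, SE 0.12, adjusted p = 0.0023, and log2 change -0.78, SE 0.12, adjusted p = 0.0029). The summed TPM of the 13 mRNAs was 9.39 to 11.7 times that of the 78 nuclear genes in Fluo-4 normal and 5.29 to 7.71 times in Fluo-4 abnormal samples, with no overlap. In TPM, a lower mitochondrial share raises the value of every other gene, and with scaling that left out the mitochondrially-encoded genes the medians were -0.16 over *Mrpl* and -0.15 over *Mrps* genes.

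Other nuclear genes of mitochondrial translation are read against the same background, 2.00% of all genes called lower, and 1 of them was called. At an unadjusted p under 0.05, 3695 of all 14435 genes passed in either direction. Of 5 ribosomal proteins with other symbols, 0 were called by limma between Fluo-4 abnormal and normal fibers and 2 had an unadjusted p under 0.05. *Dap3*, a GTP-binding small-subunit protein, differed by 0.12 (95% interval -0.07 to 0.30), *Chchd1* by -0.12 (95% interval -0.27 to 0.03), *Aurkaip1* by 0.07 (95% interval -0.09 to 0.22), *Ptcd3* by -0.23 (95% interval -0.43 to -0.02) and *Gadd45gip1* by -0.22 (95% interval -0.45 to -0.00). Of 26 genes for assembly and rRNA modification, 1 was called, with a median of 0.01 over the 26. That gene was *Mrm1*, a methyltransferase of the large-subunit rRNA, which stood at 4.83, 4.34, 2.80 and 5.20 TPM in Fluo-4 normal and 3.00, 2.89, 1.42 and 1.27 TPM in Fluo-4 abnormal samples. Its TPM + 1 fell by 41.6% (log2 change -0.78, SE 0.22, adjusted p = 0.047), and the call was lost in 16 of 25 alternative fits. At such low levels the added 1 makes this percent smaller than the fall in TPM itself. Of 15 translation factors tested, 0 were called by limma and 0 had an unadjusted p under 0.05 (median -0.03). Of 20 mitochondrial aminoacyl-tRNA synthetases tested, 0 were called and 1 had an unadjusted p under 0.05, with a median of -0.04.

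By ancestry of the protein, the genes divided as follows. Of 46 genes with a bacterial counterpart 4 were called between Fluo-4 abnormal and normal fibers (median -0.10), and of 31 without 2 were called (median -0.09). The background was 2.00% of all genes called lower, and 4.60% when only genes with at least 5 TPM were tested. By level, none of the 7 genes with a mean under 20 TPM was called (median SE 0.11). Called were 1 of 23 genes between 20 and 50 TPM (median SE 0.10) and 1 of 22 between 50 and 100 TPM (median SE 0.08). Between 100 and 200 TPM 4 of 17 were called (median SE 0.07), and at 200 TPM or above 1 of 9 (median SE 0.07). Over the 78 genes, Spearman's rho of the log2 change was -0.26 with the mean level, 0.06 with transcript length and 0.05 with GC content. Over 6277 genes with at least 5 TPM and a transcript model, rho was -0.19 with the mean level and 0.35 with transcript length. These are correlations across genes of the same samples, which are not independent replicates. The median transcript of the 78 genes was 1812 bases long and that of the 6352 genes with at least 5 TPM 3027 bases, and with a trend on GC content and length removed 13 of the 78 genes were called lower (11 *Mrpl*, 2 *Mrps*; background 3.96% lower).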

How the data were processed

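RNA of isolated EDL myofibers was sequenced in 12 samples (4 per group). Each SMART-Seq v4 library was made from 10 ng of RNA. Alignment by the authors was to GRCm39 (DRAGEN 4.3), and the deposited unit is TPM per gene, in 1 file per sample. The annotation release is not given in the sources used here. Values were tested as log2(TPM + 1) in a linear model of the 3 groups with limma 3.58.1 (R 4.3.3, variance trend), over 14435 protein-coding or mitochondrially-encoded genes with a group mean of at least 0.02 TPM, and p-values were adjusted by Benjamini-Hochberg. The fit was tested on simulated data. Nothing says that samples came from separate mice, so p-values measure the spread between samples, which may be technical.

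The genes, lists and tests were chosen with earlier results of these data known. Named were genes called in any comparison, the 3 highest and 3 lowest of each family by level, the 3 largest rises and falls per comparison, genes chosen by role, the rRNAs, 5 other ribosomal proteins and up to 4 called genes per pathway list. Same-numbered aged samples deviated together over 3039 genes (r of 0.34 to 0.55, against -0.47 to 0.29 for different numbers), and the labels give them the same numbers. They were therefore blocked as pairs in the alternatives with a replicate block, alone or joined with another change. TMM-type factors (trims of 30% and 5%), a pseudocount of 0.1, other filters, weights, covariates and leaving out each sample were also tried. Promoters and exons came from the GRCm39 genome with GENCODE gene models, and copies from BLAST 2.17.0. Tables were made with pandas 2.3.3 and numpy 2.4.6 in Python 3.11.15, and plots with matplotlib 3.10.9.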

Additional observations from a re-analysis of the deposited data

Results flagged for a closer look

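In 177 groups of 4 values, 17 held a sample far from the other 3 of its group (a gap to the nearest that took up nearly all of the group's range). Chance gives this in about 1 in 20 groups, and the cause of none was tested. Fluo-4 normal replicate 1 was such a sample in 4 of the 78 genes, above the others in *Mrps36* (227 TPM, others 187 to 191 TPM) and *Mrpl45* (28.6 TPM, others 25.3 to 25.6 TPM) and below them in *Mrps30* (14.3 TPM, others 17.8 to 18.1 TPM) and *Mrpl10* (18.7 TPM, others 21.5 to 21.8 TPM). Without it the log2 change of *Mrps36* between the aged groups was -0.39 and remained called.

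Fluo-4 abnormal replicate 2 was low in the abundant genes *Mrpl30* (298 TPM, others 337 to 343 TPM) and *Mrpl33* (522 TPM, others 568 to 572 TPM). Other Fluo-4 abnormal samples stood apart in *Mrpl24* (24.8 TPM in replicate 3, others 30.4 to 31.6 TPM), *Mrpl20* (97.2 TPM in replicate 4, others 88.8 to 90.1 TPM), *Mrps12* (83.0 TPM in replicate 1, others 97.0 to 97.8 TPM) and *Gadd45gip1* (15.3 TPM in replicate 3, others 19.0 to 19.5 TPM). Among Fluo-4 normal samples, *Mrpl44* was high in replicate 4 (35.9 TPM, others 27.8 to 29.0 TPM) and *mt-Nd5* in replicate 2 (2220.2 TPM, others 1754 to 1779 TPM). Among young samples, *Mrps28* was low in replicate 3 (214 TPM, others 229.9 to 233 TPM) and *Mrps14* in replicate 2 (234 TPM, others 258 to 261 TPM). *Myh2*, the myosin heavy chain of fast oxidative fibers, was high in 1 sample of each group, with 17.2 TPM in young replicate 3 (others 5.87 to 6.91 TPM), 34.6 TPM in Fluo-4 normal replicate 2 (others 2.38 to 5.93 TPM) and 10.6 TPM in Fluo-4 abnormal replicate 2 (others 3.74 to 4.26 TPM).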

How the results depend on the processing

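Between Fluo-4 abnormal and normal fibers, 7 genes were called. The number was 24 with TMM-type factors (3.76% of all genes lower, against 2.00%) and 13 with the GC and length trend removed (3.96%). With only the groups compared it was 2 (*Mrpl12* and *Mrps36*, 1.00%), and it was 4 to 8 when a sample was left out (1.28% to 2.06%). With the replicate block 9 genes were called (2.83%), the 7 among them, and the block lost no call. With the replicate block, 25 were called with the GC and length trend removed (6.99%), 40 with TMM-type factors (5.45%) and 0 with the *Myh4* share as a covariate (0.0554%). In the last fit, the *Myh4* share and the group go together, and the cause was not tested. Against young fibers the number, 11, became 22 with TMM-type factors (4.79% of all genes lower, against 2.40%) and 25 with the trend removed (4.81%). It was 8 to 16 when a sample was left out (1.37% to 2.98%), with the 16 without Fluo-4 normal replicate 1 (2.98%). Between Fluo-4 normal and young fibers it was 0, and 1 with sample quality weights. Leaving out a sample gave 0 in each case.

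The median of the *Mrpl* genes, -0.10, became -0.32 with TMM-type factors (also with the replicate block), -0.16 with scaling without the mitochondrially-encoded genes and -0.18 with the trend removed (also with the block), and ran from -0.13 to -0.05 with a sample left out. The median of the *Mrps* genes, -0.09, became -0.32, -0.15 and -0.18 in the same fits, and ran from -0.10 to -0.05. No called gene changed sign in any of these fits. The *Mrpl* to *Mrps* ratio in Fluo-4 abnormal fibers, 1.85, became 2.11 by assembled subunit, 1.65 without genes that have a copy and 1.05 with geometric means, and was 1.84 to 1.86 with a sample left out. TPM keeps no read counts, so the precision that depth gives is unknown.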

Other observations

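The listed levels of the rRNAs of the mitochondrial ribosome did not keep a fixed ratio. *mt-Rnr2* was 8.67, 9.32, 9.46 and 9.78 times *mt-Rnr1* in the young samples, 7.83, 7.19, 7.64 and 8.34 times in the Fluo-4 normal samples and 7.84, 6.67, 7.16 and 6.75 times in the Fluo-4 abnormal samples. The young samples were above both aged groups, and the aged groups overlapped. Both rRNAs come from the same strand of mitochondrial DNA. The ratio was noticed after the values were seen and was not tested.

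Between Fluo-4 normal and young fibers, all 13 mitochondrially-encoded mRNAs had log2 changes above 0 (median 0.32), of which 0 were called by limma and 8 had an unadjusted p under 0.05. Of all 14435 genes, 1866 had an unadjusted p under 0.05 in either direction. In the same comparison, 51 of the 78 *Mrpl* and *Mrps* genes were below 0. The summed TPM of the 13 mRNAs was 7.76, 7.45, 8.26 and 7.75 times that of the 78 genes in young and 9.45, 11.7, 9.39 and 9.48 times in Fluo-4 normal samples, with no overlap.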
